A study of Arabidopsis thaliana with 2 samples.

Results

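Genes described as encoding zinc finger, bHLH, bZIP, HD-ZIP, NAC, ERF, MYB or WRKY proteins were examined in a ChIP-seq peak list for LEAFY (LFY), a transcription factor that gives young Arabidopsis thaliana primordia floral identity. They were chosen by these words in the authors' gene descriptions, after 14 loci were set aside, among them FD, ANT, RAX1 and LMI2. The words chose 37 loci of the 512 that were named as nearest to a peak, and each of the 37 had 1 peak of the 529 in the list. All members therefore have a peak by the way they were chosen. By family, 14 had a zinc finger description, 6 were ERF, 4 MYB, 3 bHLH, 3 HD-ZIP, 3 NAC, 2 bZIP and 2 WRKY genes. The zinc finger group is mixed, since RING, FYVE, PHD and CCCH proteins are known for protein, lipid, histone or RNA contacts more than for binding a DNA sequence.

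The LFY library was precipitated with rabbit serum raised against LFY, and the input library was made without it. Both came from inflorescence tissue of ap1 cal1 plants, which are mutant in the related floral regulators APETALA1 and CAULIFLOWER, carrying 35S;LFY-GR. This construct joins LFY to the glucocorticoid receptor hormone-binding domain under a constitutive promoter active in many cell types, so the fusion is not limited to the cells in which LFY is normally made. Tissue of plants grown for 4 weeks was collected 4 h after 10 µM dexamethasone, the steroid that lets the fusion enter the nucleus. There was 1 library of each kind and no untreated library, so no value has an error between libraries, and peaks that need dexamethasone cannot be told apart from those that do not. The list gives a score per peak, the peak caller's own value, but no read counts, so the depth is unknown.

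The members belong to large plant families of regulators. The bHLH, bZIP and HD-ZIP proteins bind DNA as dimers, while MYB, NAC, WRKY and ERF proteins each bind through a domain characteristic of the family. In flowers, members of these families act in meristem identity, organ boundaries, epidermal fate and hormone response, and others act in stress and defence. LFY itself belongs to none of them and recognises its sites with a DNA-binding domain of its own.

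The members' peaks did not include the strongest of the list. Their scores ran from 53.7 to 476.0 with a median of 124.8, against 50.0 to 2952.3 with a median of 135.2 for the other 492 peaks. None of the 71 strongest peaks belonged to a member. The loci set aside count among the other 492 peaks, and they include FD (rank 4), RAX1 (ranks 23 and 33) and LMI2 (rank 27). The comparison therefore depends on which loci were set aside. Of the 37 peaks, 17 (45.9%, 95% Wilson interval 31.0 to 61.6) were among the 265 higher-scoring peaks, and 4 (10.8%, 4.29 to 24.7) were among the 133 highest-scoring. The corresponding shares of the other peaks were 50.4% (46.0 to 54.8) and 26.2% (22.5 to 30.3), and the intervals overlapped in both cases. A score of at least 100 was reached by 22 members (59.5%, 43.5 to 73.7) and by 60.6% (56.2 to 64.8) of the other peaks. The 18 peaks of the 14 loci set aside, which include known floral regulators, had a median score of 223. Only 7 of these 14 loci had descriptions that matched the words, so the rest would not have been members. These comparisons are descriptions without a test, and the intervals cover counting error only.

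**Figure D1:**
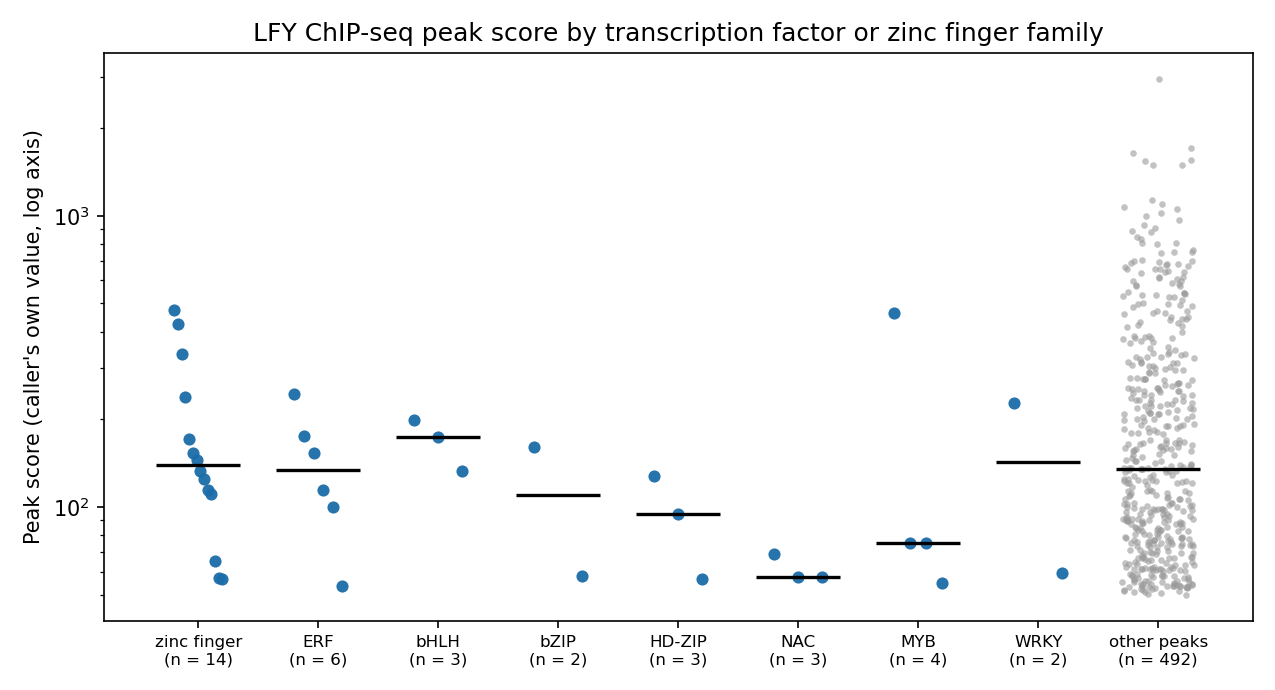
Score of each peak (log axis, the peak caller's own value) for the 8 families and for the other 492 peaks, with a bar at each median. AT1G68360 (476.0), MYB51 (462.4), ZFP7 (426.6) and RHA1A (334.1) stand above the other members, and the 3 NAC genes lie between 57.4 and 69.2.

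Zinc finger genes, 14 of the 37 members, had 3 of the 4 strongest members' peaks, and their median score was 139.1. AT1G68360, described as zinc finger-related, had a score of 476.0 (rank 72 of 529), with the peak on chromosome 1 from 25621235 to 25623149 (TAIR10) centred in its single exon, 220 bp downstream of the transcription start site (TSS). ZFP7 (AT1G24625), a zinc finger protein gene, had a score of 426.6 with the peak on chromosome 1 from 8726739 to 8727788 in its promoter, 51 bp upstream of the TSS. RHA1A (AT4G11370), which encodes a RING-H2 protein, a class of ubiquitin ligases, had a score of 334.1. Its peak, on chromosome 4 from 6907577 to 6908598, was centred in its only exon, 413 bp downstream. A separate peak with a score of 90.96 lay 683 bp away and was assigned to RHA1B, the adjacent RING-H2 gene, so both genes of this pair were next to a peak. All 3 strongest zinc finger peaks were therefore centred within 1 kb of the TSS.

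Of the other zinc finger members, AT5G46910, described as a jumonji family protein, had a score of 238.3 with an intergenic peak 1381 bp upstream (chromosome 5 from 19044951 to 19046004). Jumonji proteins of this kind are known as histone demethylases. AT3G51950, a CCCH gene, had the widest member peak, 2727 bp, centred in its 5' UTR with a score of 171.1 (chromosome 3 from 19279046 to 19281772). Both CONSTANS-LIKE genes, relatives of the photoperiod regulator CONSTANS, were near the TSS. CONSTANS-LIKE 16 (AT1G25440) had a score of 153.2 in exon 1 of 2 (chromosome 1 from 8934273 to 8936077, 285 bp downstream), and COL4 (AT5G24930) had 57.1 in the promoter, 161 bp upstream (chromosome 5 from 8588223 to 8589923). The next peak to the CONSTANS-LIKE 16 one was 47396 bp away, at TEM1, a repressor of flowering.

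Both Dof genes, members of a plant zinc finger family, had intergenic peaks. At DOF1.4 (AT1G28310) the score was 145.5, 3408 bp upstream (chromosome 1 from 9916734 to 9917756), and at DOF5.8 (AT5G66940) it was 65.6, 1576 bp upstream (chromosome 5 from 26729719 to 26730765). The C2H2 gene AT5G66730, listed in the RefSeq gene table as IDD1 or ENHYDROUS, had a promoter peak of 132.8, 792 bp upstream (chromosome 5 from 26644564 to 26645825). STZ (ZAT10, AT1G27730), a stress-induced C2H2 gene, had an intergenic peak of 124.8, 2084 bp upstream (chromosome 1 from 9650434 to 9651880). The gene after STZ in the gene order is RSL4, a bHLH regulator of root hairs. AT5G60250, a RING-type (C3H4) gene, had a score of 114.5 with the peak centred 63 bp downstream of its TSS (chromosome 5 from 24251484 to 24252958). This peak was annotated to the promoter of AT5G60230, so its assignment is uncertain between these loci. AT3G53680, of the PHD type, had 110.8 in its promoter, 529 bp upstream (chromosome 3 from 19897434 to 19898448). AT3G23270, of the FYVE type, had the lowest zinc finger score, 56.7, in exon 6 of 8 (chromosome 3 from 8317347 to 8319757, 2116 bp downstream). AT5G60250 was the 1 member of 37 whose annotation class named another locus (2.70%, Wilson interval 0.479 to 13.8), against 76 of the other 492 peaks (15.4%, 12.5 to 18.9).

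The 6 ERF members, which encode AP2/ERF domain proteins of a family first linked to ethylene response, had scores between 53.7 and 243.9. The word ethylene-responsive chose them, so AP2/ERF genes described in other words are not covered. The highest among these members was at CRF2 (AT4G23750), a cytokinin response factor gene that is also called TARGET OF MONOPTEROS 3. Its peak lay on chromosome 4 from 12372743 to 12373766, 2940 bp upstream of the TSS. It stood in a cluster: a stronger peak of 597.8, assigned to AT4G23740, lay 1354 bp away, and the gene on the other side, AT4G23760, was nearest to a peak of 706.7. The members' value at CRF2 is thus the lowest of the peaks assigned to these 3 genes. ERF12 (AT1G28360), an ERF gene of the repressor class, had a score of 175.3 in its promoter, 424 bp upstream (chromosome 1 from 9950366 to 9952482). The DOF1.4 peak was the next one to it, 32609 bp away, and ERF11 is the gene after it in the gene order.

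The other 4 ERF members had scores of 153.3 or less. The peak at ERF003 (AT5G25190), listed in the gene table as ESE3, had a score of 153.3 and lay 1523 bp upstream (chromosome 5 from 8708784 to 8709759). That at ERF118 (AT1G68550), listed as CRF10, had 114.4 and lay 4975 bp upstream (chromosome 1 from 25732126 to 25733227), the longest distance of any member. ERF013 (AT1G77640) had 99.8 in its single exon, 739 bp downstream (chromosome 1 from 29178922 to 29180030). ERF043 (AT4G32800) had 53.7, the lowest of all members, in its 5' UTR, 132 bp downstream (chromosome 4 from 15818963 to 15820349). Of the 6 ERF peaks, 3 were intergenic, 1 was in a promoter and 2 were inside the gene.

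All 3 bHLH members were among the 265 higher-scoring peaks, against 8 of the 14 zinc finger, 3 of the 6 ERF and 1 of the 4 MYB members. This describes members only, since 4 genes with a MYB name and 1 with a bHLH name were set aside. Genes of these families whose descriptions lack the chosen words are not covered either. The MYB genes set aside were RAX1 (ranks 23 and 33), LMI2 (27), AT5G49330 (133) and AT2G47460 (156), all among the higher-scoring peaks. The bHLH gene set aside, AT3G25710, had rank 304 and was not. At bHLH60 (AT3G57800) the score was 199.2, 10 bp downstream of the TSS (chromosome 3 from 21410484 to 21412938). At bHLH96 (AT1G72210) it was 173.4, 11 bp downstream (chromosome 1 from 27178804 to 27180799). These were the closest to a TSS of any member. bHLH57 (AT4G01460) had 133.1 at 1155 bp upstream (chromosome 4 from 619098 to 620111).

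Among the leucine zipper genes, GBF2 (AT4G01120), which encodes a bZIP protein that binds G-boxes, had a promoter peak of 161.2, 543 bp upstream (chromosome 4 from 484172 to 485881). A weaker peak of 64.5 at ADNT1 lay 5084 bp away. The other bZIP member, bZIP69 (AT1G06070), had 58.1 in intron 1 of 4, 357 bp downstream (chromosome 1 from 1836341 to 1838242). The next peak, 251.2, was 8042 bp away. The HD-ZIP genes join a homeodomain to a leucine zipper. HB21 (AT2G18550), known for bud dormancy, had 128.0 at its transcription termination site, 2334 bp downstream of the TSS (chromosome 2 from 8048388 to 8049370). HDG4 (AT4G17710) had 94.8 in exon 9 of 10, 2414 bp downstream (chromosome 4 from 9856029 to 9857720). GL2 (AT1G79840), a regulator of trichome and root hair fate and of the same HD-ZIP class as HDG4, had 56.6 in the promoter, 278 bp upstream (chromosome 1 from 30036171 to 30037186). None of the 3 HD-ZIP peaks was among the 265 higher-scoring ones, and those of HB21 and HDG4 lay towards the 3' end of the gene.

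The NAC members had the lowest median score of the 8 families, 57.5. The NAC gene CUC3, which was set aside, had peaks of 128.3 and 78.7. ATAF1 (AT1G01720), a NAC gene of stress and senescence, had 69.2 at 91 bp upstream (chromosome 1 from 267666 to 268812). NAC052 (AT3G10490), which lies between NAC050 and NAC053 in the gene order, had 57.5 at 633 bp upstream (chromosome 3 from 3266706 to 3267698). NAC099 (AT5G56620) had 57.4 at 1298 bp upstream (chromosome 5 from 22921958 to 22922916). All 3 peaks were upstream of the TSS, and their ranks were 425, 479 and 480 of 529.

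The MYB genes were spread more widely. MYB51 (AT1G18570), a regulator of indole glucosinolates, had 462.4 in the promoter, 672 bp upstream (chromosome 1 from 6388202 to 6389277, rank 77). The other MYB members were all below 76. MYB83 (AT3G08500), a secondary wall regulator, had 75.6 in exon 2 of 2 (chromosome 3 from 2576804 to 2577939, 875 bp downstream). AT1G14600, described as a putative Myb family gene, had 75.1 in intron 3 of 5 (chromosome 1 from 5002055 to 5003033, 826 bp downstream). MYB30 (AT3G28910), a regulator of defence-related cell death, had 54.9 in its promoter (chromosome 3 from 10910601 to 10911581, 66 bp upstream). WRKY48 (AT5G49520), a defence regulator, had 227.2 at 1443 bp upstream (chromosome 5 from 20088987 to 20089680), and WRKY35 (AT2G34830) had 59.6 in intron 1 of 2 (chromosome 2 from 14694836 to 14696753, 584 bp downstream). The WRKY48 peak was the narrowest of the members at 694 bp. A peak of 699.0 assigned to the neighbouring gene PFD3 lay 2476 bp from it.

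**Figure D2:**
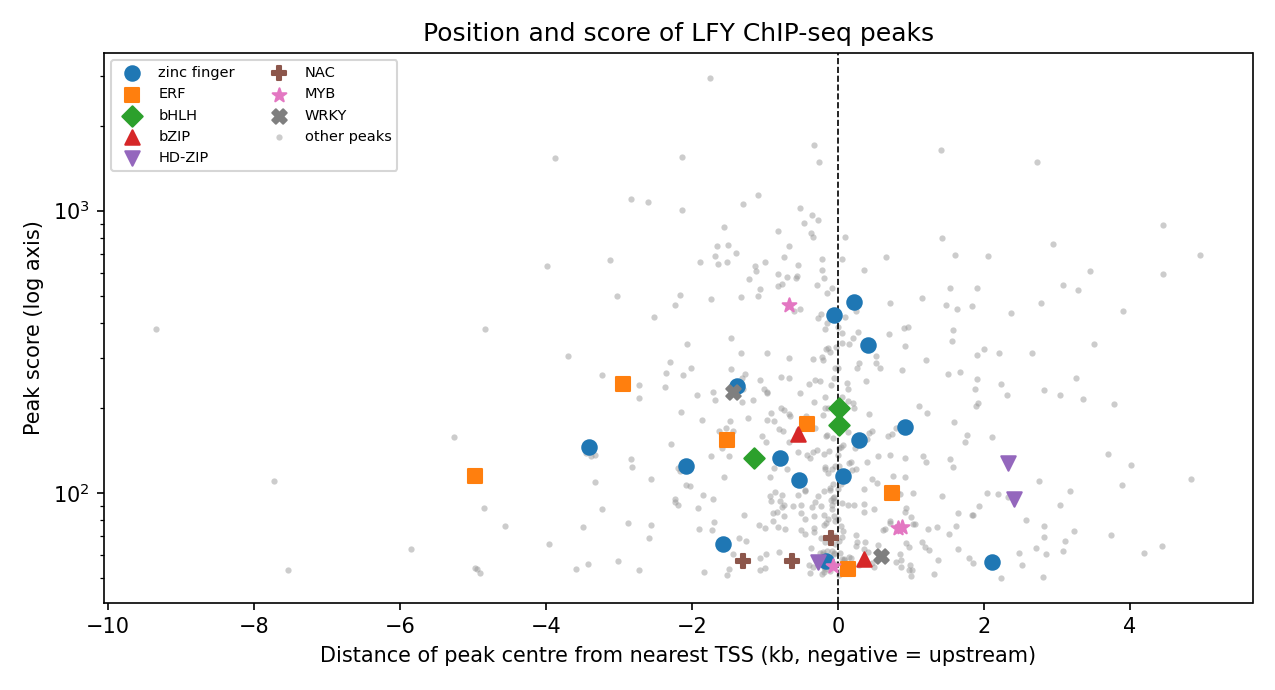
Score of each peak (log axis) against the distance of its centre from the nearest TSS in kb, negative upstream, for the 37 members by family and for the other 492 peaks in grey. The members fall between 4975 bp upstream and 2414 bp downstream, and the bHLH genes bHLH60 and bHLH96 sit at the TSS.

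The classes of sequence in which the members' peaks were centred were set beside those of the other peaks. Promoters held 14 of 37 peaks (37.8%, Wilson interval 24.1 to 53.9), against 40.7% (36.4 to 45.0) of the other peaks. Intergenic sequence held 10 (27.0%, 15.4 to 43.0), against 22.6% (19.1 to 26.5), and exons 7 (18.9%, 9.48 to 34.2), against 12.0% (9.41 to 15.2). HB21 alone was annotated to a termination site (2.70%, 0.479 to 13.8), against 74 of the other peaks (15.0%, 12.2 to 18.5). Members' peaks were upstream of the TSS in 21 cases (56.8%, 40.9 to 71.3), against 57.1% (52.7 to 61.4). Peaks within 1 kb of the TSS made up 64.9% of the members (48.8 to 78.2) and 55.9% of the others (51.5 to 60.2). All these pairs of intervals overlapped. No member was centred in a 3' UTR, where a count of 0 of 37 allows a share of up to 8.11%. The 12 peaks inside exons, introns or 5' UTRs had a median score of 85.2, against 114 for the 107 other peaks inside genes. The 10 intergenic members had a median of 139.3, against 193 for the 111 other intergenic peaks.

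**Figure D3:**
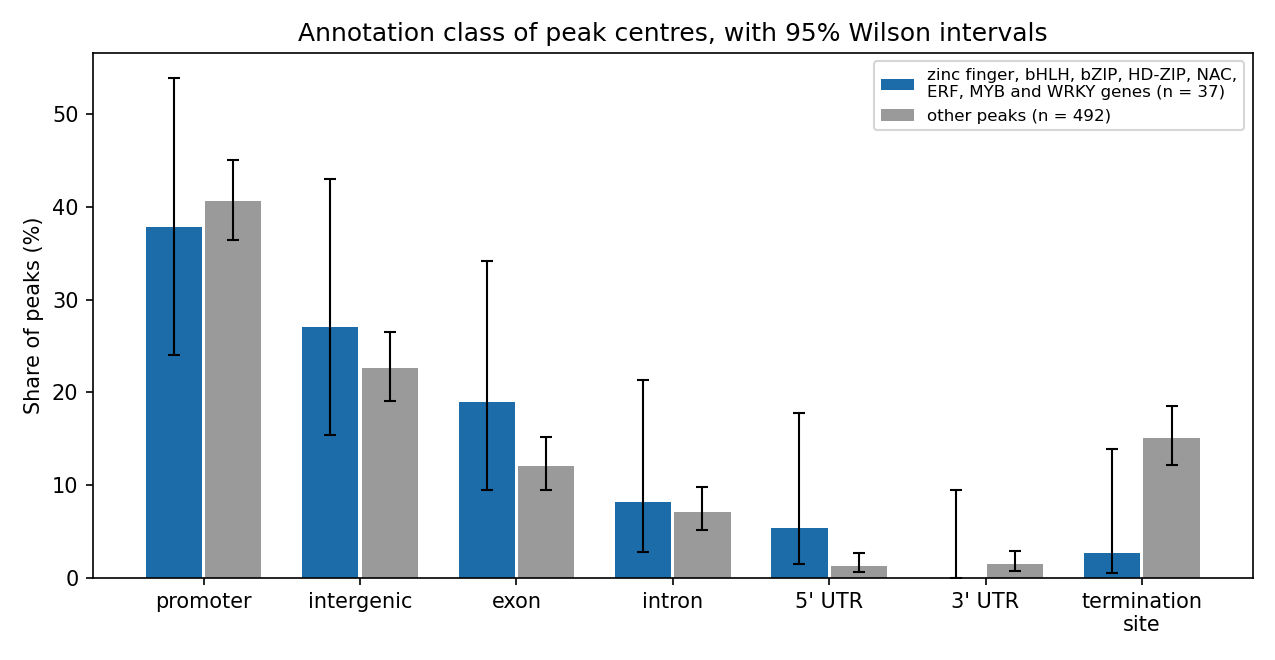
Share of peak centres in each annotation class (%) for the 37 members and the other 492 peaks, with 95% Wilson intervals. The termination site class shows the widest gap between the bars, 2.70% of the members and 15.0% of the others, and the intervals overlap.

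Of the members, 32 had no other peak within 10 kb. A second peak was that close for 5 members (13.5%, Wilson interval 5.91 to 28.0), against 25% (21.4 to 29.0) of the other peaks. These were RHA1A, CRF2, WRKY48, GBF2 and bZIP69. At CRF2, WRKY48 and bZIP69 the adjoining peak scored higher than the member's own. MYB51 was just beyond this limit, at 10708 bp from a peak of 335.8. At the other end MYB30 had no other peak within 598306 bp. By chromosome, 14 members were on chromosome 1 (37.8%, 24.1 to 53.9), against 25.2% (21.6 to 29.2) of the other peaks, and 2 were on chromosome 2.

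Genes that carry a family name in the gene table were counted for 3 families whose members all carry that name. Over all 37899 nuclear genes of the table, 1.32% were nearest to a peak, and over the 27444 protein-coding ones 1.75% were. Of 72 genes with a WRKY name, 2 (2.78%, Wilson interval 0.765 to 9.57) had a peak. Of 100 with a NAC name, 4 (4%, 1.57 to 9.84) did, the fourth being CUC3, which was set aside. Of 51 with a bZIP name, 4 (7.84%, 3.09 to 18.5) did, of which FD and its paralogue were set aside. The bZIP share without these would rest on 2 genes. The bZIP gene ABI5 (AT2G36270) was nearest to a peak of 54.5 but was not found by name. The shares therefore cover genes found by name and not whole families. The WRKY interval includes both background shares. The NAC interval includes that of protein-coding genes and lies above that of all genes. The bZIP interval lies above both, but FD and its paralogue, which were set aside, are among its 4 genes. The genes counted in all 3 families are protein-coding.

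Of 62 genes of these families, in 7 lists drawn up by family, 3 (4.84%, Wilson interval 1.66 to 13.3) were nearest to a peak, beside 1.32% of all genes and 1.75% of protein-coding ones. The lists left out relatives that have a peak, among them CUC3, RAX1, LMI2, FD, GL2, COL4, MYB51 and ATAF1. Their counts and the interval therefore do not measure how often genes of a family had one. The genes with a peak were CRF2, GIS and HAN. CRF2 is itself a member, and its peak is the one described above, so only GIS and HAN are additional. At GIS, a C2H2 gene that acts in trichome initiation, the score was 111.9, 470 bp downstream of the TSS. At HAN, a GATA gene of meristem and organ boundaries, it was 53.2, 2726 bp upstream. The authors' descriptions of GIS and HAN hold none of the words that chose the members. By list, GIS and HAN were 2 of 14 zinc finger genes and CRF2 was 1 of 6 AP2/ERF genes. No peak was assigned to any of the 12 bHLH, 10 MYB, 9 homeodomain leucine zipper, 6 bZIP and 5 NAC genes listed. Because relatives with a peak were left off the lists, these counts describe the listed genes only and set no upper limit for a family.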

How the data were processed

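LFY-precipitated and input chromatin, sheared to about 200 to 500 bp per the labels' protocols, gave 1 deposited peak list. Per the submitters' processing notes, FastQC, MACS 1.4 and HOMER were used with TAIR10; per the file headers, annotatePeaks.pl assigned the nearest promoter. The aligner, threshold and contrast library were not given in the sources used here. The values are the score that the authors' caller gave each peak, as deposited; they served to order and select peaks of this list. Depth is unknown.

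Members were found by word match in the deposited descriptions, which matched 7 of the 14 loci set aside. The members and the lists were chosen with earlier results of these data known. All 37 loci were in the RefSeq gene table (TAIR10.1), used for names and gene order only, and positions are those of the peak list. Every member is named with its position; of the list genes, those with a peak are named, and the relatives left off the lists were named after their values were seen. Family shares were used only where a name search found at least 80% of members; for HD-ZIP it also took in other homeobox genes. No test was run, since there is 1 library of each kind. Shares have 95% Wilson intervals and a count of 0 allows 3 counts. Promoter and peak sequences were not used here. The code of the member rule was run on simulated descriptions that held the rule's own words. That run does not show whether the words miss genes in the real descriptions. The tools were pandas 2.3.3, NumPy 2.4.6, SciPy 1.17.1 and matplotlib 3.10.9 under Python 3.11.15.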

Additional observations from a re-analysis of the deposited data

How the results depend on the processing

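Of 27 alternatives, 18 left the value within its interval or the count within 1.5 times, and 9 did not. Some of the 18 could not have moved. Each member had 1 peak, so taking the best peak of each locus changed nothing. Likewise, the WRKY, NAC and bZIP genes counted were all protein-coding, so a limit to protein-coding genes changed nothing. The number of members was 17 among the 265 higher-scoring peaks, 22 with a score of at least 100, 24 within 1 kb of the TSS, and 15 when names of the gene table replaced the descriptions; 13 of those 15 were members, the others being ZFHD1 and HB25. The median score was 175 among the 265 higher-scoring peaks and 166 at scores of at least 100, against 289.9 and 247 for the other peaks. The promoter share was 58.3% within 1 kb, against 72.7% for the other peaks. The number of list genes with a peak was 1 among the 265 higher-scoring peaks (CRF2) and 1 within 1 kb (GIS). The limits themselves remove peaks, which lowers the counts. Promoter motif searches and their alternatives were not run, because no sequence was used here. No paired analysis was possible because there is 1 library of each kind. Without read counts, the precision of a single peak is unknown, and with 37 peaks the intervals on shares are wide.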
